A study of Homo sapiens with 12 samples.

Results

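The NRF2 pathway was followed through 9 genes in every library: NFE2L2, which encodes the transcription factor NRF2, KEAP1, its repressor, and 7 antioxidant target genes, NQO1, HMOX1, GCLC, GCLM, TXNRD1, SRXN1 and SLC7A11. These are 9 of the 26364 gene symbols counted, and all 9 were found. The RNA came from HCT116 cells, a human colon cancer cell line, either WT or a p65-deficient line that is 1 single-cell clone (clone 32). Its libraries are labelled as shRNA p65, whereas the methods of the study describe a CRISPR-Cas9 guide against the gene of p65, RELA, and that description was followed here. Cells of each line were left without inhibitor or received camptothecin (CPT), an inhibitor of topoisomerase 1 (TOP1), or ICRF193, an inhibitor of topoisomerase 2 (TOP2), each at 5 µM for 2 h. They were taken without TNFα (0 h) or after 1 h with 20 ng/mL TNFα. The study describes the inhibitor as a 2 h pre-treatment to which TNFα was then added. By that description the inhibitor was present for longer in cells that had both. All 12 combinations were sequenced once, and no condition has a replicate.

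In unstressed cells KEAP1 holds NRF2 in a ubiquitin ligase complex with CUL3 and RBX1, and the proteasome degrades it. Electrophiles and oxidants modify KEAP1, NRF2 then accumulates, pairs with a small MAF protein and binds antioxidant response elements near its target genes. The pathway is thus controlled mainly at the level of the NRF2 protein, which RNA counts do not measure. The targets make glutathione (GCLC and GCLM, the subunits of glutamate-cysteine ligase, and SLC7A11, the cystine importer), maintain thioredoxin and peroxiredoxin (TXNRD1 and SRXN1), reduce quinones (NQO1) or degrade heme (HMOX1).

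The core of the antioxidant response element, TGACNNNGC, was searched on both strands in RefSeq promoter windows of build GRCh38.p14, which run from 250 bases before to 50 bases after a start site. Of 35116 windows of this length, 13.3% held the core. A window was found for 7 of the 9 genes, HMOX1 and SLC7A11 having no entry, and 4 of their 10 windows held it, those of GCLM, TXNRD1 (2 start sites) and the second start site of KEAP1. The 6 matches are shown because they are the letters that an NRF2 complex is known to read. Each is printed 5′ to 3′ on the strand of the gene with 5 bases on either side, the match is in capitals, and a match on the opposite strand reads GCNNNGTCA.
GCLM, chr1:93909451-93909469, minus strand: tttctGCTTAGTCAttgtc
KEAP1, chr19:10502812-10502830, minus strand: tattgTGACACGGCgggcg
KEAP1, chr19:10502789-10502807, minus strand: gctctGCTTAGTCAtggtg
TXNRD1, chr12:104215675-104215693, plus strand: ggctaTGACTTCGCtgttg
TXNRD1, chr12:104215766-104215784, plus strand: cttcgGCTCCGTCAgttcc
TXNRD1, chr12:104286925-104286943, plus strand: tttctGCTTTGTCAttctg
The nearer KEAP1 match and the GCLM match share the same 9 letters, and both KEAP1 matches and the TXNRD1 match at the second start site lie wholly in sequence that GENCODE also annotates as exon. No window of NFE2L2, GCLC, NQO1 or SRXN1 held these letters, which says nothing about elements farther from the start site. A match is a description of the sequence and no binding was measured.

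Library depth was 16300210 to 22051046 counted reads in WT cells and 8101212 to 20524958 in the clone. In the clone, 4 libraries were shallow (8101212 to 8755001 reads): ICRF193 at 0 h and all 3 with TNFα. RELA was lower in the clone than in WT cells (log2 fold change -0.45, SE 0.08, adjusted p = 9.18e-04) but still present. The difference was small with CPT, where RELA had 694 and 727 normalized counts in WT cells (0 and 1 h TNFα) and 673 and 643 in the clone. Without inhibitor it had 908 and 882 against 548 and 573, and with ICRF193 859 and 909 against 618.5 and 556. Of 6 epithelial markers, 5 were abundant, among them EPCAM and KRT8, and the sixth, CEACAM5, had at most 1 read. Of the defining markers of other cells, CD3E had no read, and PTPRC, COL1A2 and PECAM1 had at most 2, 1 and 3 reads. Over the whole lists, the summed normalized count of the 3 fibroblast markers was 117 to 196 with CPT against 77.2 to 104 without inhibitor, nearly all from COL1A1, and that of the 4 immune markers was 250 to 352 against 201 to 275, nearly all from CD68. The sum of the 2 endothelial markers was lower, 4.15 to 12.2 with CPT against 13.6 to 20.3 without inhibitor, with VWF at 4 to 26 reads. That of the 6 epithelial markers was 55630 to 68490 with CPT against 52610 to 59620 without inhibitor.

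All 9 genes were expressed in every library, from at least 202 reads for HMOX1 to at most 22675 reads for TXNRD1. Levels of different genes can be compared only per length, and per kb of exon the median normalized count of the 4 libraries without inhibitor was highest for TXNRD1 (3026 per kb, range 2686 to 3483), which ranked at the 98.2 percentile of 16989 genes with reads. NQO1 (1601 per kb), SRXN1 (1077) and KEAP1 (946) followed, and their ranges over the 4 libraries did not overlap. NFE2L2 (446 per kb, 395 to 552) and GCLC (446 per kb, 401 to 456) lay together, and could not be ordered beyond their spread. HMOX1 (264), GCLM (196) and SLC7A11 (110, 106 to 119) were lowest, with ranges that did not overlap. NFE2L2 mRNA was therefore less abundant per kb than that of KEAP1, the lowest of whose 4 values was 809.7.

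The first comparison asked whether the mRNA of the regulator and those of its targets moved together when TOP1 was inhibited. NFE2L2 mRNA fell by 37.1% with CPT, whereas the targets split: NQO1 rose by 15.1%, GCLC fell by 22.9%, SRXN1 fell by 13.5%, and GCLM, SLC7A11, HMOX1 and TXNRD1 did not pass the test. KEAP1 fell by 21.5%, so that both ends of the control point were lower. Of the 9 genes, 1 was raised and 4 were lowered, where 23.2% of 13993 genes tested were raised and 25.1% lowered. The median log2 fold change of the 9 was -0.20 against 0.02 for all genes tested. CPT thus changed a large part of the transcriptome, and a count of 5 of 9 is near the share of all genes. The counts are relative to the other RNAs of the library, and less mRNA per cell and fewer cells carrying it cannot be told apart in bulk RNA.

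In the libraries without inhibitor, NFE2L2 (chromosome 2, 178095031 to 178129859 on hg19, minus strand, 6 exons) had 1573 and 1845 normalized counts in WT cells at 0 and 1 h TNFα, and 1320.3 and 1407 in the clone. With CPT, the same 4 conditions gave 1091, 1054, 845 and 884. All 4 CPT libraries lay below all 8 libraries without CPT, the lowest of which had 1320.3. The share of all genes that separated so fully was not counted, here or for the genes below. Of all genes tested, 48.3% passed with CPT, so such separation may be common. The log2 ratios of the 4 matched pairs were -0.53, -0.81, -0.64 and -0.67, each with a counting interval below 0. The fitted log2 fold change was -0.67 (SE 0.06, 95% interval -0.79 to -0.54, adjusted p = 3.65e-06), at the 9.58 percentile of all genes tested. The fall was present in both lines: the clone minus WT difference in the CPT effect was -0.01 (95% interval -0.23 to 0.21).

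KEAP1 (chromosome 19, 10596796 to 10614054, minus strand, 7 exons) is the substrate adaptor of the ligase that marks NRF2. Without inhibitor it had 2659.7 and 2679 normalized counts in WT cells and 2453 and 2187 in the clone, and with CPT 1918 and 2119 in WT cells and 1969 and 1863 in the clone. Here too all CPT libraries lay below all others, and the log2 fold change was -0.35 (SE 0.05, adjusted p = 1.17e-04). In every pair the ratio of KEAP1 was less negative than that of NFE2L2, by 0.06 to 0.47.

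NQO1 (chromosome 16, 69743304 to 69760571, minus strand), the quinone reductase often used as a readout of NRF2 activity, went the other way. It had 4149.7, 4267, 4319 and 4031 normalized counts without inhibitor and 4977, 4749, 4718 and 4964 with CPT, in the order WT at 0 and 1 h TNFα, then the clone. Every CPT library was above every library without CPT, and the log2 fold change was 0.20 (SE 0.04, adjusted p = 0.00257). The change was small, with pair ratios from 0.13 to 0.30. For each read on NFE2L2 there were 2.64, 2.31, 3.27 and 2.87 reads on NQO1 without inhibitor and 4.56, 4.50, 5.58 and 5.62 with CPT.

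**Figure D1:**
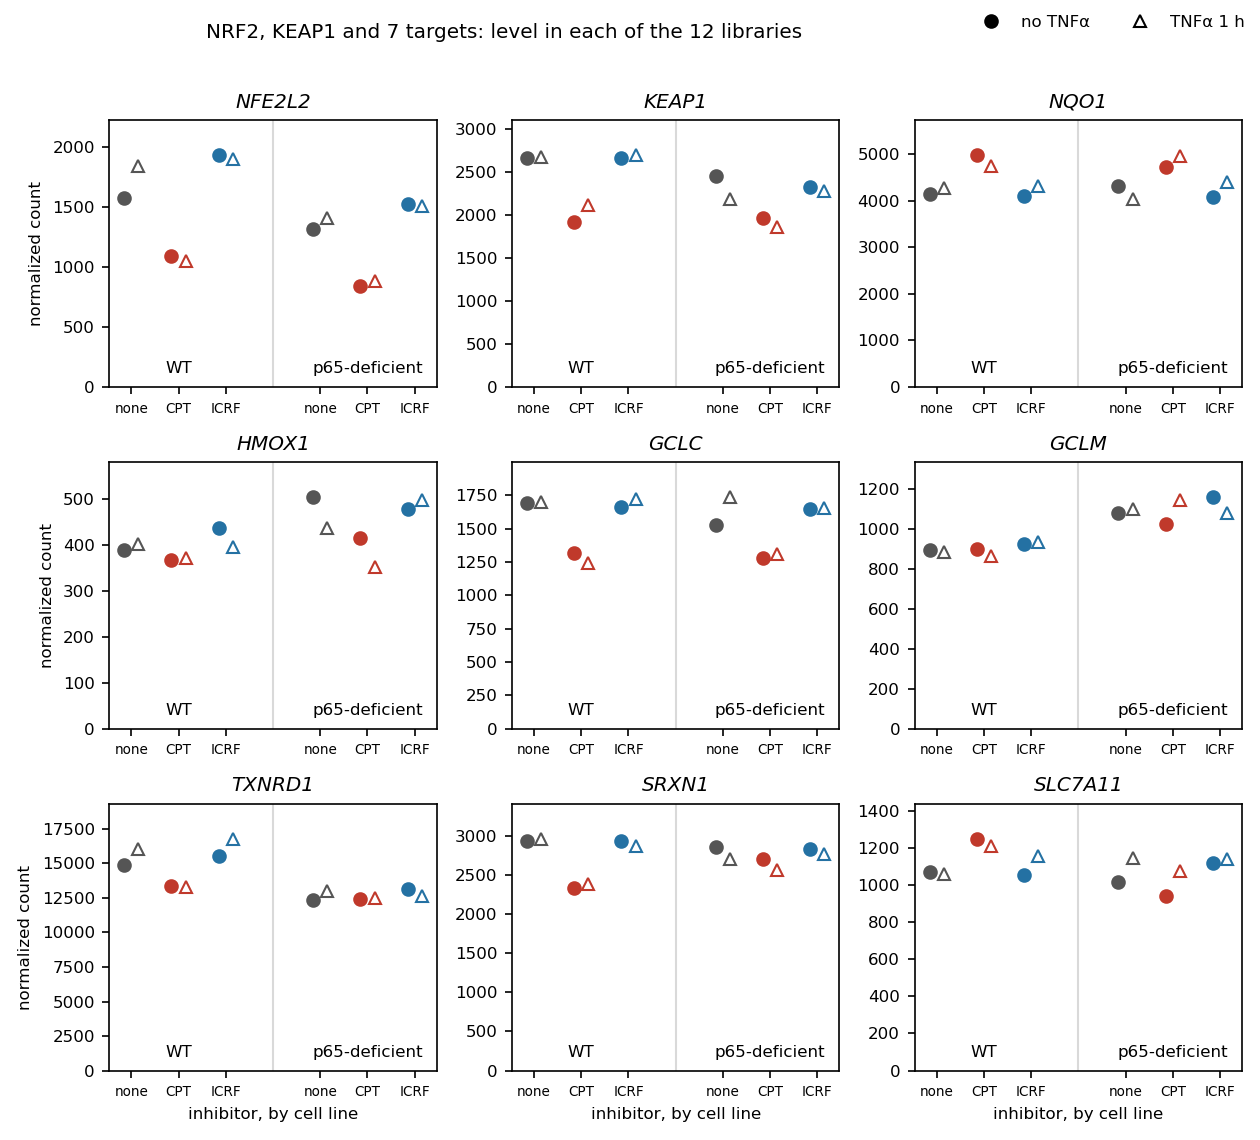
Normalized count (linear axis from 0) of NFE2L2, KEAP1 and the 7 targets in each of the 12 libraries, by inhibitor and cell line, with filled circles for no TNFα and open triangles for 1 h TNFα. The 4 CPT libraries of NFE2L2 sit between 845 and 1091, below all others, and those of NQO1 sit between 4718 and 4977, above all others.

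The glutathione genes differed from each other. GCLC (chromosome 6, 53362140 to 53409927, minus strand), the catalytic subunit, had 1695, 1701, 1529 and 1738 normalized counts without inhibitor and 1319.9, 1245, 1278 and 1311 with CPT, again without overlap, and fell by 0.37 on the log2 scale (SE 0.05, adjusted p = 1.11e-04). GCLM (chromosome 1, 94350756 to 94375154, minus strand), the modifier subunit of the same enzyme, had 895, 887, 1082 and 1099 against 899, 863, 1024 and 1147. Its log2 fold change was -0.02 (95% interval -0.14 to 0.09, adjusted p = 0.752), with 2 pairs on each side of 0. SLC7A11 (chromosome 4, 139085248 to 139163503, minus strand), the cystine transporter, had 1073, 1058, 1019 and 1147 normalized counts without inhibitor and 1251, 1209.8, 941 and 1074 with CPT. It was higher with CPT in both WT pairs (log2 ratios 0.22 and 0.19) and lower in both pairs of the clone (-0.12 and -0.10), and over the 4 pairs the log2 fold change was 0.05 (adjusted p = 0.576). The exons of SLC7A11 share 102 and 174 bases with those of an antisense gene, SLC7A11-AS1, and were counted without regard to strand. That gene had 4 to 35 reads, and the effect of the overlap on the count of SLC7A11 was not tested.

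Of the thioredoxin genes, SRXN1 (chromosome 20, 627268 to 634014, minus strand), which reduces overoxidized peroxiredoxin, had 2931, 2967, 2864 and 2700.3 normalized counts without inhibitor and 2333, 2392, 2703 and 2569 with CPT. Its log2 fold change was -0.21 (SE 0.05, adjusted p = 0.00651). The pair ratios were -0.33 and -0.31 in WT cells and -0.08 and -0.07 in the clone, and the test of that difference between the lines gave 0.22 (adjusted p = 0.107). TXNRD1 (chromosome 12, 104609557 to 104744085, plus strand), thioredoxin reductase, had 14884, 16055, 12383 and 13014 against 13391, 13299, 12427 and 12491, and a log2 fold change of -0.13 (adjusted p = 0.0609). HMOX1 (chromosome 22, 35777060 to 35790207, plus strand), heme oxygenase, had 389, 403, 505 and 437 against 368, 371, 414 and 353, below its own partner in all 4 pairs, and a log2 fold change of -0.20 (adjusted p = 0.0522). TXNRD1 and HMOX1 sat close to the threshold and each passed in 3 of 9 alternative fits, whereas NFE2L2, KEAP1, NQO1, GCLC and SRXN1 passed in all 9.

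**Figure D2:**
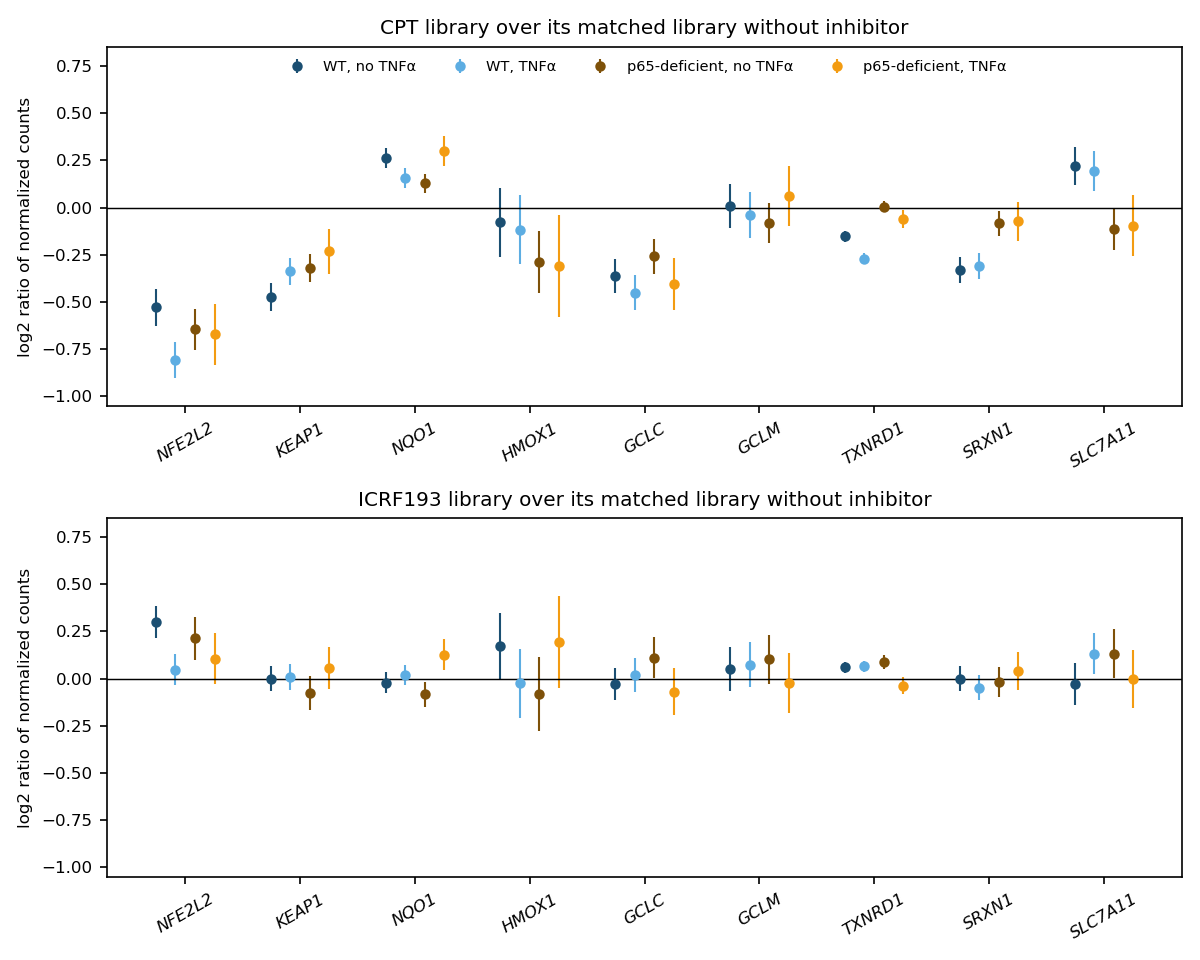
Log2 ratio of normalized counts of each of the 9 genes for CPT (upper panel) and ICRF193 (lower panel) against the matched library without inhibitor, one point per pair with its exact 95% counting interval. NFE2L2 ratios with CPT run from -0.81 to -0.53, and with ICRF193 from 0.05 to 0.30.

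Set against NFE2L2 in the same pair, every other member was lowered less or raised. The log2 ratio of the gene minus that of NFE2L2 was 0.87 ± 0.11 (SD over 4 pairs) for NQO1, 0.71 ± 0.21 for SLC7A11, 0.65 ± 0.12 for GCLM, 0.54 ± 0.12 for TXNRD1, 0.47 ± 0.16 for HMOX1, 0.46 ± 0.18 for SRXN1, 0.32 ± 0.19 for KEAP1 and 0.29 ± 0.10 for GCLC. All 8 were above 0 in 4 of 4 pairs, and an exact sign-flip permutation test over pairs gave a two-sided p of 0.125 for each, the smallest that 4 pairs allow. The 8 differences share the NFE2L2 values and are not independent. NFE2L2 was itself among the genes lowered most, and 79.2% of 13898 genes with reads in these libraries were also above it in all 4 pairs, so the count of 8 says little about the members in particular. With KEAP1 in place of NFE2L2, 5 of the 7 targets were above 0 in all 4 pairs. HMOX1 was above 0 in 3 pairs and GCLC in 2, and the mean for GCLC was -0.03 ± 0.14. KEAP1 was itself at the 19.9 percentile of the CPT changes of all genes tested. The share of all genes above KEAP1 in every pair was not counted, so the count of 5 says little about the targets in particular.

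**Figure D3:**
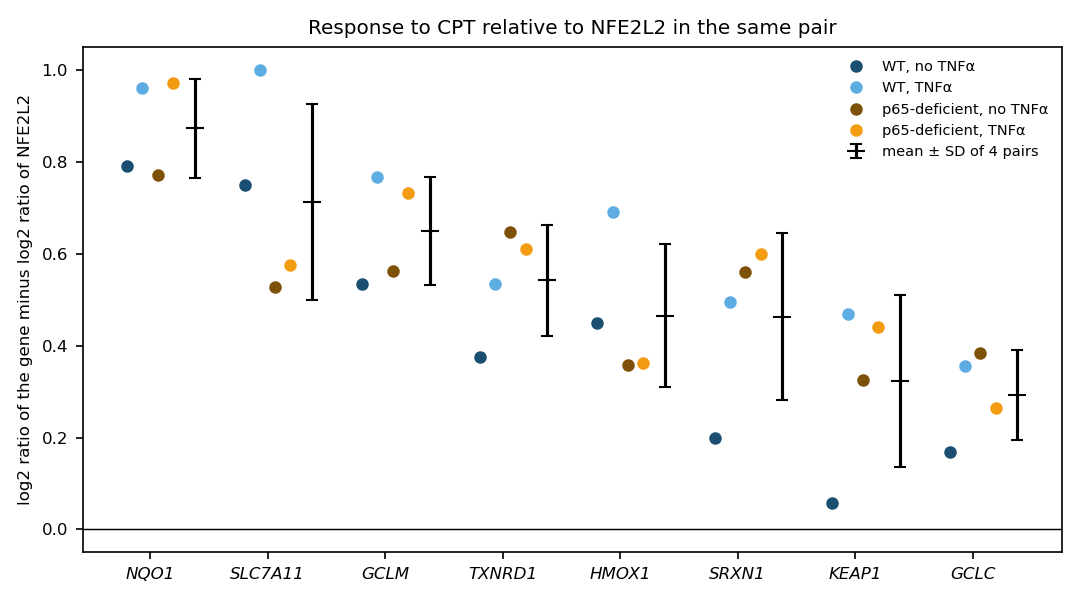
For each gene, the CPT log2 ratio minus that of NFE2L2 in the same pair, as 4 points by pair with the mean ± SD beside them. All points lie above 0, from 0.06 (KEAP1 in WT cells without TNFα) to 1.00 (SLC7A11 in WT cells with TNFα).

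The response to CPT went with gene length over all genes, and the values for the 9 genes are given beside it. Genes were placed in 4 groups of equal size by the length of their genomic span. In the group of shortest genes (0.043 to 9.34 kb) the median CPT log2 fold change was 0.20, with 43.7% raised and 16.0% lowered, and in that of longest genes (from 63.7 kb) it was -0.10, with 7.45% raised and 33.9% lowered. SRXN1 (6.75 kb) was in the shortest group and was lowered. KEAP1, NQO1, HMOX1 and GCLM (13.2 to 24.4 kb) were in the second group, where the median was 0.07, NFE2L2 (34.8 kb) and GCLC (47.8 kb) in the third, where it was -0.02, and TXNRD1 (134.5 kb) and SLC7A11 (78.3 kb) in the longest. NFE2L2 was thus far below the median of its length group. By expression, 7 of the 9 genes were in the highest of 4 equal groups, where 33.6% of genes were raised and 24.0% lowered. From the lowest to the highest group, the median CPT log2 fold change was 0.17, -0.04, -0.05 and 0.06. In the same order, 28.0%, 14.5%, 16.8% and 33.6% of genes were raised, and 11.2%, 29.9%, 35.2% and 24.0% lowered. The part of length or level in these results was not tested.

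Across the 12 libraries, the level of KEAP1 followed that of NFE2L2 most closely among the members (Pearson r = 0.91 on the log2 scale), then GCLC (0.90), TXNRD1 (0.76) and SRXN1 (0.72), while NQO1 ran opposite to it (-0.80) and SLC7A11 and GCLM had values of 0.11 and -0.25. These are descriptions over libraries that share the inhibitor, cell line and normalization. Among 10124 genes with a mean normalized count of at least 100, the genes whose pattern was most like that of NFE2L2 were SIN3A, SIRT1, USP53, RPRD1B and MYNN (r of 0.98 each), all lowered by CPT (log2 fold changes from -0.88 to -0.33). For KEAP1 they were SDHAF2, RHPN2, C7orf26, PVR and GPRC5A (r from 0.97 to 0.98).

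ICRF193, which acts on the other topoisomerase, moved a single member. NFE2L2 rose, with 1937 and 1907 normalized counts in WT cells and 1530.5 and 1513 in the clone against the values without inhibitor given above, and with all 4 pair ratios above 0 (0.30, 0.05, 0.21 and 0.10). The log2 fold change was 0.17 (SE 0.04, adjusted p = 0.00493), opposite in sign to CPT, in a comparison in which 2.17% of 13631 genes passed in either direction. The call rested on 1 pair: without WT cells at 0 h it was 0.12 (adjusted p = 0.276), and it was also lost with DESeq2, without the pair as a block and with all 12 libraries in one fit. None of the 7 targets passed in edgeR's quasi-likelihood test, 0 had an unadjusted p under 0.05, and DESeq2 called 0. The log2 fold changes of KEAP1 and the targets lay between -0.01 (SRXN1) and 0.06 (SLC7A11).

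CPT and ICRF193 share the libraries without inhibitor, and were therefore also compared with each other, at the same dose and time. Of the 9 genes, 1 was higher with CPT and 6 were lower, where 20.9% of 13900 genes were higher and 25.5% lower. NFE2L2 was lower with CPT by a log2 fold change of -0.85 (SE 0.05, 95% interval -0.97 to -0.74, adjusted p = 4.22e-08). GCLC (-0.40), KEAP1 (-0.36), HMOX1 (-0.27, adjusted p = 0.0169), SRXN1 (-0.21) and TXNRD1 (-0.18, adjusted p = 0.0234) were lower as well, and NQO1 was higher (0.18, adjusted p = 0.00915). HMOX1 kept its call in 6 of 8 alternative fits and TXNRD1 in 5. GCLM and SLC7A11 did not pass, with 95% intervals of the difference from -0.22 to 0.05 and from -0.18 to 0.14.

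TNFα for 1 h changed no member past the threshold over the 3 WT pairs, which include those with CPT and ICRF193. In the pairs with an inhibitor, TNFα also goes with a longer time in that inhibitor by the study's description. The effects of TNFα and of that time cannot be told apart there. The stimulus itself was visible in NFKBIA, the NF-κB target that encodes IκBα (log2 fold change 2.48, adjusted p = 6.05e-07). In this fit, 0 of the 9 genes passed in edgeR's quasi-likelihood test, where 0.642% of 13707 genes did, 0 had an unadjusted p under 0.05, and DESeq2 called 0. The fitted log2 fold changes lay between -0.03 (HMOX1) and 0.07 (TXNRD1), and that of NFE2L2 was 0.06 (95% interval -0.05 to 0.17). In the single WT pair without inhibitor, NFE2L2 had a log2 ratio of 0.23 (counting interval 0.15 to 0.31) and TXNRD1 of 0.11 (0.08 to 0.14), and the intervals of the other 7 genes included 0. With CPT and with ICRF193 the ratios of NFE2L2 were -0.05 and -0.02. In the clone the libraries with TNFα were the shallow ones, so the ratios are given as values only: without inhibitor, they lay between -0.21 (HMOX1) and 0.19 (GCLC).

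The p65-deficient clone differed from WT cells in 5 of the 9 genes over 6 matched pairs. NFE2L2 was lower (log2 fold change -0.31, SE 0.04, adjusted p = 4.14e-05, below its partner in 6 of 6 pairs), as were TXNRD1 (-0.23, adjusted p = 0.00137) and KEAP1 (-0.16, adjusted p = 0.0124). GCLM was higher (0.29, SE 0.04, adjusted p = 2.24e-04), and so was HMOX1 (0.19, adjusted p = 0.0406). These 2 raised and 3 lowered genes stand beside 15.2% of 13730 genes raised and 16.9% lowered. GCLM had 863, 897 and 933 normalized counts (lowest, median and highest) in the 6 WT libraries and 1024, 1091 and 1161 in the 6 of the clone, without overlap. TXNRD1 had 13299, 15199 and 16793 in WT cells and 12383, 12583 and 13159 in the clone, again without overlap. The share of all genes without overlap between the lines was not counted. For NFE2L2 the ranges overlapped, the CPT libraries being lowest in both lines. HMOX1 was the least stable of the 5, and passed in 4 of 10 alternative fits. The other 4 genes had log2 fold changes from -0.07 (SLC7A11) to 0.02 (SRXN1). The clone is 1 line, and what p65 deficiency and what cloning contributed cannot be told apart.

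Whether the response to CPT differed between the lines was tested as an interaction, in which 4.51% of 13993 genes passed. Of the 9 genes, SLC7A11 alone passed, with a difference of -0.34 (clone minus WT, SE 0.09, adjusted p = 0.0452), and it kept the call in 2 of 7 alternative fits. For the other 8, the differences lay between -0.22 (HMOX1) and 0.22 (SRXN1).

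NRF2 acts with partners, and 11 of its regulators and partners were examined under CPT: 2 were raised, 5 lowered and 4 did not pass, beside 23.2% raised and 25.1% lowered over all genes tested. BACH1, the repressor that competes with NRF2 for the same elements, had 820.5, 921, 904 and 1004 normalized counts without inhibitor and 501, 416, 588 and 615 with CPT, without overlap, and fell by 0.80 on the log2 scale (SE 0.08, adjusted p = 1.48e-05). The small MAF genes, whose proteins are the DNA-binding partners of both, diverged. MAFF (-0.89, adjusted p = 0.0218) and MAFK (-0.57, adjusted p = 0.00415) were lowered and MAFG (0.37, adjusted p = 0.0188) was raised. NFE2L1 (-0.14, adjusted p = 0.017), a related factor, and FBXW11 (-0.18, adjusted p = 0.00923), a ligase adaptor that marks NRF2 independently of KEAP1, were lowered, and RBX1 (0.20, adjusted p = 0.0194) was raised. NFE2L1 and RBX1 each lost the call in 3 alternative fits. CUL3, NFE2L3, BTRC and SQSTM1 did not pass, with log2 fold changes from -0.13 to -0.02. The exons of MAFK share 809 bases with those of TMEM184A on the other strand, so MAFK is uncertain.

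In edgeR, 3 of the 11 regulators and partners differed between the lines in their response to CPT, beside 4.51% of 13993 genes tested. These were the 3 small MAF genes, of which MAFK is uncertain because of its shared exons. DESeq2 called only 2 of the 11. MAFF had 518 and 947 normalized counts in WT cells without inhibitor (0 and 1 h TNFα) and 211 and 255 with CPT, but 209.8 and 304 against 277 and 222 in the clone. The difference in the CPT effect, clone minus WT, was 1.67 (SE 0.23, adjusted p = 6.34e-04). MAFK had 910.4 and 897 against 446 and 502 in WT cells, and 642 and 608 against 599 and 524 in the clone, a difference of 0.76 (SE 0.11, adjusted p = 0.00116). MAFG had 1250.4 and 1248 against 1240.1 and 1349.9 in WT cells, and 1053 and 1139 against 1878 and 1690.3 in the clone, a difference of 0.65 (SE 0.10, adjusted p = 0.00199). The lowering of MAFF and MAFK was thus largest in WT cells, and the rise of MAFG largest in the clone. The call for MAFF over all 4 pairs was lost when either WT pair was left out (adjusted p = 0.101 and 0.147), that for MAFG when either pair of the clone was left out (0.0684 and 0.0969), and both were lost with DESeq2.

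**Figure D4:**
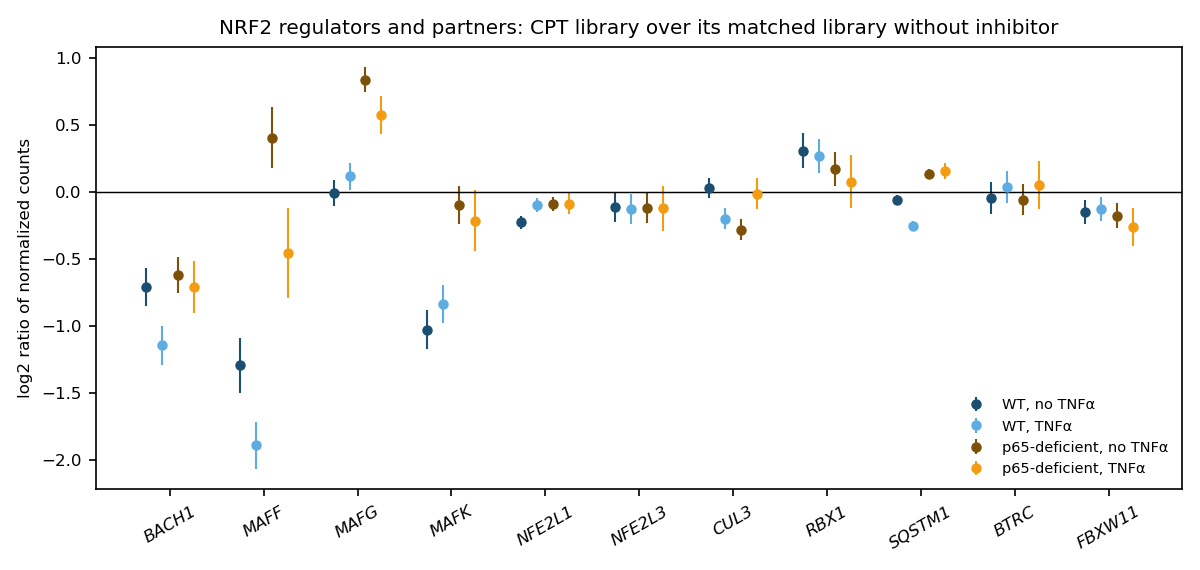
Log2 ratio of normalized counts for CPT against the matched library without inhibitor for 11 NRF2 regulators and partners, one point per pair with its exact 95% counting interval. BACH1 lies below 0 in all 4 pairs, from -1.15 to -0.62, whereas MAFF runs from -1.89 in WT cells to 0.40 in the clone.

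Among the other comparisons, MAFF was raised by TNFα in WT cells (0.77, adjusted p = 5.51e-06, lost with DESeq2 at 0.275) and lower in the clone than in WT cells (-0.91, adjusted p = 0.00395), and BACH1 was higher in the clone (0.24, adjusted p = 0.00795). SQSTM1, the selective autophagy receptor that can sequester KEAP1, passed with TNFα close to the threshold (0.18, adjusted p = 0.0495), and lost the call with DESeq2 (0.228), without the block and when the pair without inhibitor or that with ICRF193 was left out. Its exons share 105 bases with MGAT4B and 620 with C5orf45 on the other strand, so it is uncertain as well. With ICRF193, NFE2L3 alone passed (-0.16, adjusted p = 0.0319), and 4 of the 11 had an unadjusted p under 0.05. Over all genes tested in edgeR, 2.17% passed with ICRF193 and 0.642% with TNFα in WT cells. DESeq2 called 0 of the 11 with ICRF193 and 0 with TNFα, and NFE2L3 also lost its call without the block, with all 12 libraries in one fit and in 3 of 4 fits that left out a pair.

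A list of 46 further genes known as NRF2 targets, with MAFG and SQSTM1 of the partners again among them, was examined in the same fits. Of these 46, 38 were tested. The other 8, among them AKR1C1 and ALDH3A1, had at most 15 reads in any library. With CPT, 18 were raised, 4 lowered and 16 did not pass, beside 23.2% raised and 25.1% lowered over all genes. DESeq2 called 16 of the 38, where edgeR called 22. The median log2 fold change was 0.16 against 0.02 over all genes tested. Most changes were small, those of the raised genes running from 0.14 to 0.42. The largest with the same direction in all 4 pairs were ABCC3, an efflux transporter (0.42, SE 0.11, adjusted p = 0.00938), and FTL, the ferritin light chain (0.34, SE 0.05, adjusted p = 2.63e-04). AKR1B1, aldose reductase (0.31), GSTP1, a glutathione transferase (0.29), and EPHX1, an epoxide hydrolase (0.28), followed. MAFG (0.37) lay between ABCC3 and FTL but was above 0 in only 3 of the 4 pairs. EPHX1 lost its call in 3 alternative fits and ABCC3 in 1. The 4 lowered genes were CHAC1 (-1.66, SE 0.12, adjusted p = 1.36e-06), which degrades glutathione, TRIM16 (-0.55), TRIM16L (-0.44) and ABCC2 (-0.38), an efflux transporter. CHAC1 is known foremost as a target of the ATF4 stress response, and had only 28 to 281 reads. TRIM16L, with 39 to 103 reads, lost its call in 4 alternative fits and ABCC2 in 1.

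By function, 5 of 6 iron and heme genes were raised and 0 lowered, 4 of 6 NADPH and pentose phosphate genes were raised and 0 lowered, 5 of 10 glutathione and thioredoxin genes were raised and 1 lowered, and 3 of 9 detoxification genes were raised and 1 lowered. Of the remaining 7 genes, 1 was raised and 2 lowered, with a median of -0.02, below that of all genes. The shares over all genes are again 23.2% raised and 25.1% lowered, and groups of this size give no more than a description. Both ferritin genes, FTL (0.34) and FTH1 (0.21, adjusted p = 0.00333), and the pentose phosphate enzymes TALDO1 (0.24, adjusted p = 6.31e-04) and TKT (0.14) were among the raised. The peroxiredoxin genes PRDX6 (0.26) and PRDX1 (0.21) and thioredoxin, TXN (0.28, adjusted p = 2.27e-04), were raised as well. The median span of the 18 raised genes was 16.5 kb and that of the 16 not called was 39.1 kb, and 20 of the 38 were in the group of highest expression, where 33.6% of all genes were raised. With ICRF193, edgeR called 0 of the 38, beside 2.17% of 13631 genes tested, so few calls were to be had. Of the 38, 5 had an unadjusted p under 0.05, and DESeq2 called 0. With CPT set against ICRF193 in edgeR, 13 of the 38 were higher and 4 lower, beside 20.9% and 25.5% of all genes. There 2 of 6 iron and heme genes were higher, FTH1 not passing (adjusted p = 0.0932), and 5 of 6 NADPH and pentose phosphate genes.

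**Figure D5:**
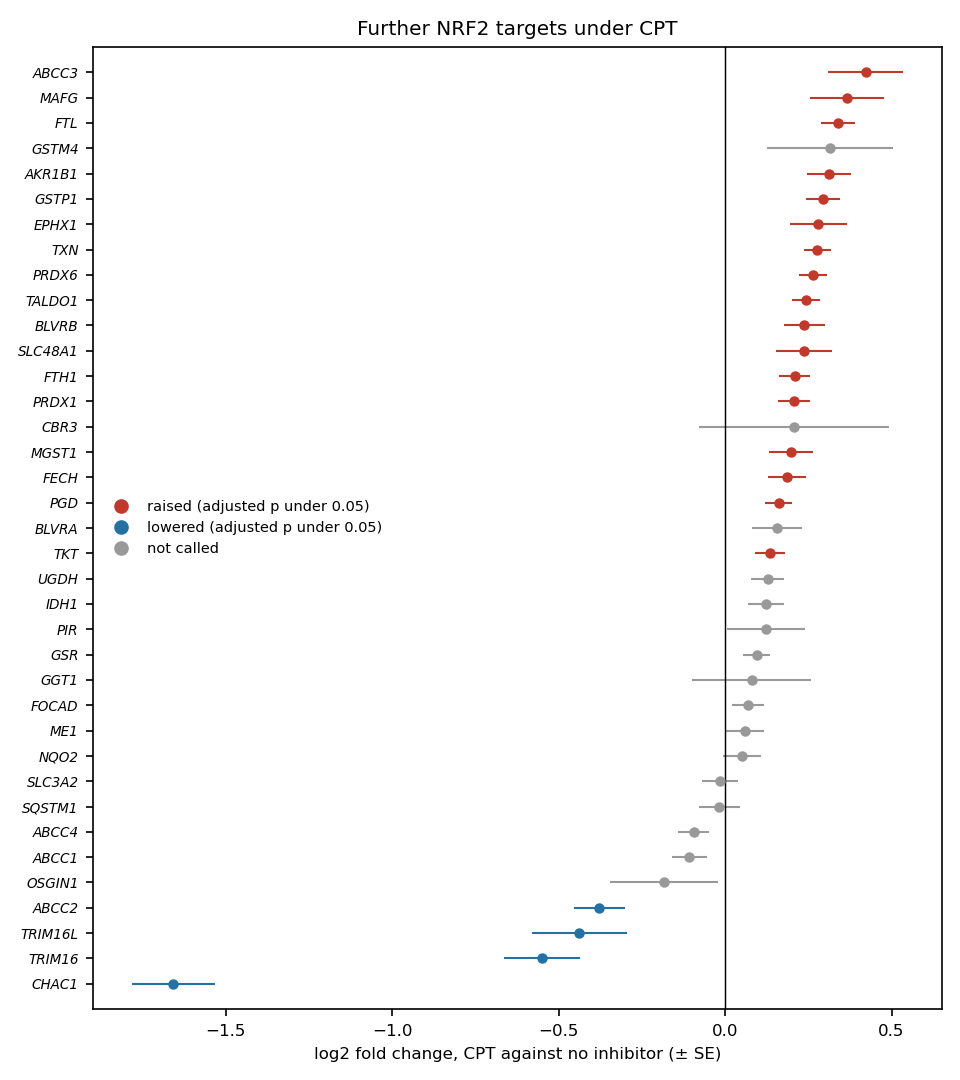
Fitted log2 fold change ± SE with CPT for the further NRF2 targets tested (1 of the 38 is not drawn), in order of size, in red where raised, blue where lowered and grey where not called. The raised genes reach at most 0.42, while CHAC1 stands apart at -1.66.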

How the data were processed

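RNA-seq of total RNA (TruSeq Stranded total RNA LT) was analysed in 12 libraries, 1 per condition. The deposited values are raw counts: the authors used Trimmomatic for trimming, mapped to hg19 (STAR is named in the submitters' processing notes, without a version) and counted reads on the exons of each gene symbol with featureCounts 1.5.0, without normalization and, per the file headers, without a strand option. Reads where genes on opposite strands overlap could therefore not be assigned by strand.

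Normalized counts, and ratios of 2 libraries, used DESeq2 size factors estimated over the 12 libraries and no pseudocount. Exact Clopper-Pearson 95% intervals cover counting error only and treat reads as independent molecules. Tests across all genes used edgeR 4.0.16 (TMM, edgeR's expression filter, quasi-likelihood test) with the matched pair as a block and Benjamini-Hochberg adjustment over all genes tested (threshold 0.05). SE is the absolute log2 fold change divided by the square root of F. Pairs that differ in cell line, TNFα or inhibitor stand in for replicates, so p-values measure the spread between these libraries, which may be technical. The edgeR fits were also run on simulated counts, in which pairs did not differ except in depth. Such counts cannot show whether matched conditions can stand in for replicates.

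The members and gene lists were chosen with earlier results of these data known. Named were all 9 members, all 11 regulators and partners, the 5 further targets raised and lowered most among those called with the same direction in all 4 pairs (4 qualified as lowered), and the 5 genes most like NFE2L2 and KEAP1 by Pearson r on log2 (normalized count + 0.5). Other genes of these lists given as examples by function were chosen after their values were seen. Alternatives were DESeq2 size factors in edgeR, no filter, DESeq2 1.42.0, no block, leaving out each pair, all 12 libraries in one fit, TMM or total-count scaling and pseudocounts of 0.5 and 1 for ratios, and KEAP1 as reference. Statistics ran in R 4.3.3 (with limma 3.58.1) and scipy 1.17.1, tables in pandas 2.3.3 and numpy 2.4.6, and plots in matplotlib 3.10.9 under Python 3.11.15. Chromatin and protein data were not analysed here. A further target is counted in its list but not reported here by itself.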

Additional observations from a re-analysis of the deposited data

Results flagged for a closer look

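SLC7A11, the cystine importer, differed between the lines in its response to CPT by -0.34 on the log2 scale (clone minus WT, adjusted p = 0.0452 in edgeR's quasi-likelihood test). Both WT pairs were above 0 (0.22 and 0.19) and both pairs of the clone below it (-0.12 and -0.10), and the counting interval of the clone pair with TNFα, which is between shallow libraries, included 0. Over the 7 alternative fits the difference ran from -0.35 to -0.30 and the adjusted p from 0.021 to 0.557.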

How the results depend on the processing

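With no inhibitor as the reference, the number of genes changed by CPT stayed within 1.5 times under every alternative fit, as did that of CPT against ICRF193, and the 5 members called with CPT passed in all 9. The other counts moved. For ICRF193, 84 genes passed with DESeq2, 3 without the pair as a block and 32 with all 12 libraries in one fit, with 0 members each time, and leaving out a pair gave 148 to 322 genes and 0 to 1 members. For TNFα in WT cells, 26 genes passed with DESeq2 and 0 without the block, and 60 to 372 without a pair. For the clone, 2043 genes and 2 members passed without the block, and 3 to 5 members without a pair, the lowest without ICRF193 at 1 h TNFα. For the CPT effect by line, 1096 genes passed with no filter and 145 with DESeq2, and 221 to 1606 without a pair, and members called were 0 with DESeq2 or its size factors and 0 to 2 without a pair. The main fits gave 296 genes for ICRF193, 88 for TNFα in WT cells and 631 for the CPT effect by line. Leaving out a pair thus moved these counts both ways. Why the counts moved was not tested.

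Among the fitted values given, signs turned for 6, each near 0 in the main comparison. Some values not given by themselves turned too, such as KEAP1 (-0.016 to 0.018) and NQO1 (-0.024 to 0.035) with ICRF193. The NFE2L2 difference in the CPT effect between lines was 0.018 with DESeq2 size factors, 0.0086 with no filter, 0.017 with DESeq2, and -0.15 to 0.13 without a pair. Leaving out a pair also gave -0.012 to 0.10 for SLC7A11 with CPT, -0.018 to 0.0084 for SRXN1 with ICRF193, -0.038 to 0.10 for NFE2L2 and -0.069 to 0.030 for HMOX1 with TNFα, and -0.021 to 0.042 for SRXN1 in the clone. GCLC set against KEAP1 in place of NFE2L2 was -0.030, against 0.29 with NFE2L2. No scaling moved the median of all genes by over 0.1 (log2). No paired analysis by replicate number was possible because each condition has 1 library, and the matched conditions served as pairs. Depth limits the clone most, where HMOX1 had as few as 202 reads.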
